A study of Mus musculus with 24 samples.

Results

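Oxidative phosphorylation genes were followed in mouse hematopoietic stem cells (HSCs), the rare bone marrow cells that renew themselves and give rise to blood. The genes were taken by symbol: protein-coding genes starting with Nduf (without the Ndufaf assembly factors), Cox4 to Cox8, Uqcr or Atp5, the 4 succinate dehydrogenase subunits, and the protein-coding genes of mitochondrial DNA. The rule found 99 gene IDs of 55487 in the files, of which 86 were nuclear and 13 mitochondrial. By complex, the nuclear IDs comprised 36 of complex I, 4 of complex II, 8 of complex III, 20 of complex IV and 18 of complex V. The mitochondrial genes comprised 7 of complex I, 1 of complex III, 3 of complex IV and 2 of complex V. Atp5o has 2 overlapping IDs, so the nuclear IDs carry 85 symbols, and Ndufa4 and Ndufa4l2 were put with complex IV despite their names.

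The study compared transcriptomes in 3 experiments, made by Smart-seq2, which copies polyadenylated RNA into full-length cDNA. HSCs of genotype PUS10-OE (n = 3), overexpressing the pseudouridine synthase PUS10, were set against Vector (n = 3). HSCs of genotype miR139-KD (n = 6), a knockdown of the microRNA miR-139, were set against the non-target control NTC (n = 6). HSCs labelled Pus10-KO (n = 3) were set against Pus10-WT (n = 3). The labels give no age or strain and no route of delivery, and nothing in them says that the replicates are separate animals. P-values then describe the variation among these replicates only, part of which may be technical.

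Complex I (NADH dehydrogenase) and complex II (succinate dehydrogenase) feed electrons to ubiquinone, complex III passes them to cytochrome c, and complex IV (cytochrome c oxidase) passes them to oxygen. Complexes I, III and IV pump protons, and complex V (ATP synthase) uses the gradient to make ATP. All complexes except complex II mix subunits from both genomes, so the nuclear and the mitochondrial transcripts have to be supplied together. Quiescent HSCs are known for relying less on oxidative phosphorylation than their progeny do.

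Depth was 9.87 M to 47.3 M counts (mega) over genes per library, deepest in the PUS10-OE and Vector libraries, and 15575 to 17879 genes were detected. Pus10 had 75.9 ± 20.2 CPM in Vector and 257 ± 23.7 CPM in PUS10-OE (SD, n = 3 each). The libraries labelled Pus10-KO had 35.2 ± 1.31 CPM and Pus10-WT had 28.4 ± 7.68 CPM (SD, n = 3 each), so the counts over the gene do not mark a knockout. The labels do not say which part of the gene was targeted. The 10 HSC markers summed to 649 to 3338 CPM per library. Their sums were highest in the third experiment, at 2807 to 3338 CPM in Pus10-WT and 2884 to 3197 CPM in Pus10-KO.

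Promoters of the nuclear genes are known for sites of NRF1 and of ETS-family factors, so the RefSeq promoters (GRCm38.p6, 250 bases before the start) were searched on both strands. A promoter was matched for 69 of the 85 symbols. The NRF1 palindrome, spelled in capitals in the first 4 windows shown here, lay in 4 of them (5.80%), against 0.864% of other genes, and the ETS core CCGGAAG in 12 (17.4%), against 7.80%. The shorter TGCGCA, which can overlap the palindrome, lay in 14 (20.3%), against 7.33%. AAGATGGC, known from YY1 sites, lay in 1 (1.45%, against 1.83%) and CCAAT in 30 (43.5%, against 37.5%). These matches are descriptions of letters, not of binding. The other genes were all 26956 with a RefSeq promoter, expressed in HSCs or not, and base composition was not matched. The 4 palindrome windows are shown first, followed by the ETS windows of 4 genes that were among the 3 lowest p-values of their own complex in PUS10-OE. Each reads 5′ to 3′ on the gene's strand with the motif, or its reverse complement, in capitals.
Atp5g2 (chr15:102671070-102671099, minus strand): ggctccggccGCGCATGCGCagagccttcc
Atp5k (chr5:108434430-108434459, minus strand): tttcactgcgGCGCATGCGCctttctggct
Cox6a1 (chr5:115349101-115349130, minus strand): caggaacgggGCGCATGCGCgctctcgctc
Ndufa11 (chr17:56717692-56717721, plus strand): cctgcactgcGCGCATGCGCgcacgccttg
Uqcr11 (chr10:80406869-80406898, minus strand): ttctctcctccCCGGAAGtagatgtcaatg
Sdhd (chr9:50603877-50603906, minus strand): ccgtctcctgcCTTCCGGttcacgcttcag
Cox6b1 (chr7:30626124-30626153, minus strand): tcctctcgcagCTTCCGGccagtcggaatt
Atp5h (chr11:115419939-115419968, minus strand): caaggagagaaCTTCCGGcaactctcttcc

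Nuclear members took 1.56% to 3.03% of all gene counts per library and the mitochondrial genes 1.12% to 2.02%. The lowest nuclear shares were those of the third experiment: 1.602% to 1.85% in Pus10-WT and 1.56% to 1.70% in the libraries labelled Pus10-KO. All other libraries lay between 2.32% and 3.03%. The ratio of mitochondrial to nuclear counts was 0.718 to 0.755 in Vector, 0.469 to 0.640 in NTC and 0.938 to 1.03 in Pus10-WT. It was 0.492 to 0.750 in PUS10-OE, 0.440 to 0.623 in miR139-KD and 1.05 to 1.07 in Pus10-KO. Within each experiment the ratio overlapped between groups except in the third, where all 3 Pus10-KO libraries lay above all 3 Pus10-WT libraries. Each experiment has its own control and no group is shared between them, so differences between experiments cannot be told apart from differences between the groups used. In bulk libraries, fewer cells of a type and less RNA per cell cannot be told apart either.

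**Figure D1:**
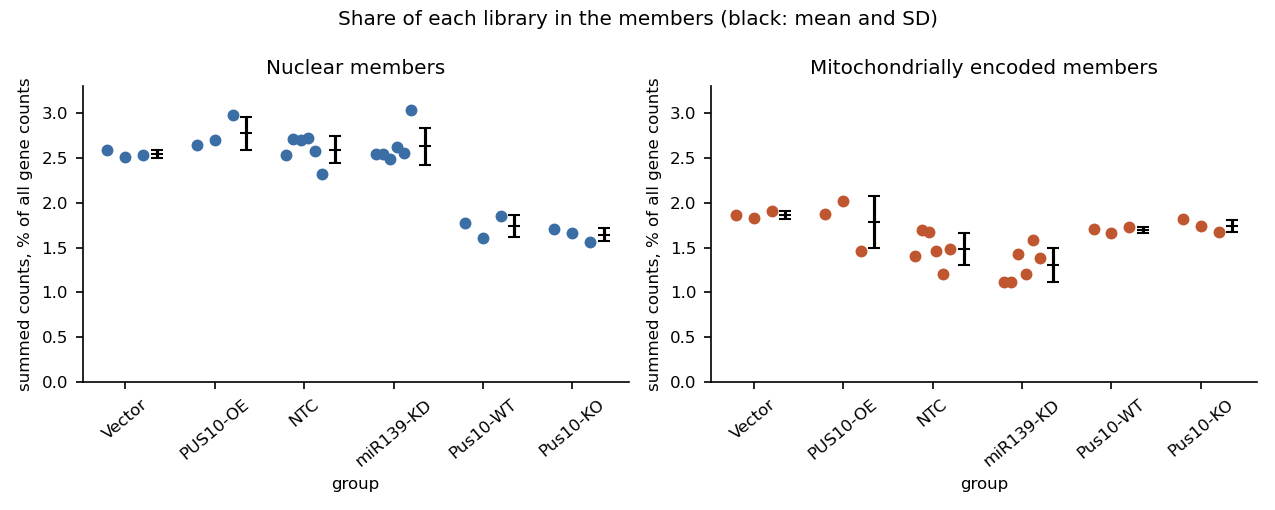
Summed counts of the nuclear members (left, blue) and of the mitochondrially encoded members (right, orange) as a percentage of all gene counts, 1 point per library, with the group mean and SD in black. Both groups of the third experiment sit between 1.56% and 1.85% for nuclear members, below every library of the other experiments, while the mitochondrial shares overlap.

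Levels were compared between genes per kb of exon, as mean CPM per kb over the 24 libraries. Among nuclear members, the highest levels were those of Cox6a1 (943 CPM per kb) and Cox8a (939), small structural subunits of cytochrome c oxidase. Uqcr11 (690) and Uqcr10 (607), small subunits of complex III, led their complex. Atp5b (415), the catalytic beta subunit of ATP synthase, and Atp5c1 (341), its central stalk gamma subunit, led complex V. In complex I the highest were the accessory subunits Ndufa2 (532) and Ndufa8 (361), and the lowest was Ndufb2 (3.25). Sdhd (262), a membrane anchor, and Sdhb (165), the iron-sulfur subunit, led complex II, and Sdhc (72.8), the other anchor, was lowest. The lowest of the remaining complexes were Uqcrc2 (79.5) for III and Atp5s (19.1), a coupling factor, for V. These ranks depend on the exon length the annotation gives a gene.

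Most isoforms that are textbook markers of other tissues were at low levels or at 0, and Cox6b2 was the highest of them by mean level (46.1 CPM per kb). Cox8b and Cox8c had 0 counts in all 24 libraries, and Ndufa4l2 had 2 counts in a single miR139-KD library. Cox7a1, the heart and muscle form, had at most 2.23 CPM in any library, while its ubiquitous counterpart Cox7a2 had 143 to 413 CPM. Cox7b2 had counts in Pus10-WT libraries (33 counts in all) and 0 in the others. Cox4i2, the lung and hypoxia-linked form of subunit 4, had 22.9 to 24.1 CPM in Vector and 19.96 to 24.4 CPM in PUS10-OE, with overlapping groups. It had 0 to 2.88 CPM in NTC, 0.908 to 16.3 CPM in miR139-KD, 1.80 to 7.38 CPM in Pus10-WT and 0 to 3.54 CPM in Pus10-KO. All libraries of the first experiment thus lay above all others, the nearest being a miR139-KD library at 16.3 CPM. Cox6b2, the testis form, had 8.20 to 106 CPM over all libraries, beside 314 to 743 CPM for Cox6b1.

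The 13 mitochondrial genes were counted at very unequal levels. Cytochrome b (mt-Cytb) held 37.6% of their counts, mt-Co1, the catalytic subunit of complex IV, 26.6%, and mt-Nd1 of complex I 20.7%. Per kb, mt-Cytb had 4792 CPM, mt-Nd1 3237, mt-Co1 2982, mt-Nd4 849, mt-Nd5 511, mt-Nd6 415 and mt-Nd2 310. The remaining genes were far lower: mt-Co2 42.1, mt-Atp6 33.8, mt-Co3 21.6, mt-Nd3 19.9, mt-Nd4l 1.61 and mt-Atp8 1.04 CPM per kb. In Pus10-KO the leading pair did not differ beyond its spread, with mt-Cytb at 4417 ± 263 and mt-Co1 at 4415 ± 114 CPM per kb (SD, n = 3). In Pus10-WT it lay further apart than both SDs together, with mt-Cytb at 4729 ± 139 and mt-Co1 at 4372 ± 52.5 CPM per kb (SD, n = 3). In Vector, mt-Nd1 came second: mt-Cytb stood at 6814 ± 245, mt-Nd1 at 4476 ± 256 and mt-Co1 at 2638 ± 69.4 CPM per kb (SD, n = 3).

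Several of these low values are uncertain, because the genes have near-identical copies in the nuclear annotation between which reads could be split. Reads that match both may also be missing from the counts: the entry for alignments that are not unique was 0 in all 24 libraries. The part of either in the low values was not tested. Transcripts of at least 95% identity over at least 50% of the length were found for 8 of the 13 mitochondrial genes and 10 of the 86 nuclear IDs. The chromosome 1 copy of mt-Atp6 is identical over its 678 aligned bases and held 13981 counts, against 12294 for mt-Atp6 itself. The identical copy of mt-Co3 held 15025 counts, against 7448, and that of mt-Nd4l 241, against 248. The copies of mt-Co2 held 10237 counts, against 10072. For each of these genes, gene and copies together stayed far below mt-Cytb, which held 3078041 counts. Among nuclear members, copies held 26.0% of the combined counts for Atp5l, 11.6% for Atp5h, 9.81% for Atp5o and 9.46% for Ndufs3. mt-Cytb, mt-Nd1, mt-Nd2, mt-Nd6 and mt-Atp8 had no such copy. Neighbouring genes also overlap: mt-Atp8 and mt-Atp6 share 43 bases (chrM:7927-7969, plus strand, GRCm38), shown here because a read within them cannot be given to either gene, with the start codon of mt-Atp6 in capitals.
mt-Atp8 and mt-Atp6: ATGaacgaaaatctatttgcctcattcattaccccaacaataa
mt-Nd4l and mt-Nd4 share 7 bases. mt-Nd5 and mt-Nd6 share 14 bases on opposite strands, and since the kit does not mark strand, reads of mt-Nd6 and of RNA from its opposite strand cannot be told apart.

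**Figure D2:**
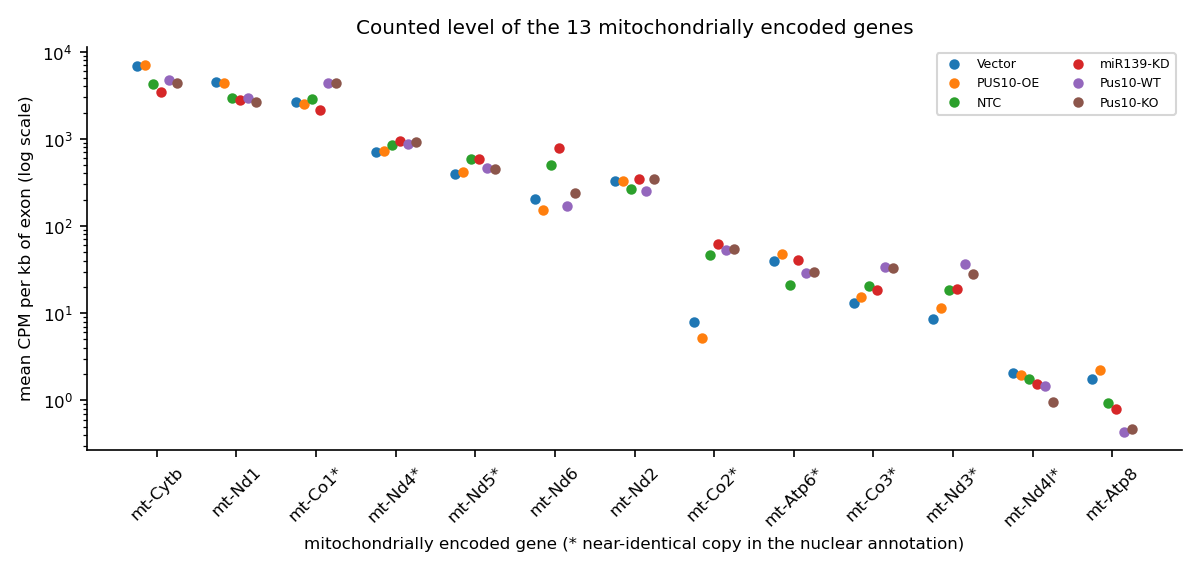
Mean CPM per kb of exon (log axis) of each mitochondrially encoded gene in the 6 groups, 1 point per group mean, ordered by the mean over all libraries. An asterisk marks genes with a near-identical copy in the nuclear annotation; mt-Cytb, mt-Nd1 and mt-Co1 lie at the top in each group, and mt-Co2 and the genes to its right lie below 100 CPM per kb.

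The first comparison asks how PUS10 overexpression goes with expression in HSCs. In PUS10-OE, nuclear members leaned upward as a group by small amounts, whereas the mitochondrial genes did not. No member was called by edgeR's quasi-likelihood test (adjusted p under 0.05), and neither was any other gene, the share called being 0% of 14834 genes tested. The overexpressed gene, Pus10, was missed as well. edgeR placed it 1.76 log2 units higher in PUS10-OE, yet its adjusted p was 0.278, where DESeq2 gave 8.03e-15. A missing call in this edgeR fit therefore does not show that a gene was unchanged. Of the 86 nuclear IDs, 80 passed the filter on low counts, and 69 of these had a positive log2 fold change, with a median of 0.24. Over all genes tested the median was 0.0059, with 50.7% positive. At an unadjusted p under 0.05, 35 nuclear members were higher and 1 was lower, where 4.47% and 3.72% of all genes were (8.19% in either direction). In 40 members all PUS10-OE libraries lay above all Vector libraries and in 3 below, against 8.31% and 6.75% of all genes. DESeq2 called 5 nuclear members, all higher (Atp5g1, Atp5mpl, Ndufs6, Ndufa5 and Cox7a2), with 1.44% of all genes called. Nuclear members of complexes I, III, IV and V had medians of 0.26, 0.21, 0.25 and 0.21, and complex II had 0.05.

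Atp5g1 encodes the proteolipid c subunit that forms the rotor ring of ATP synthase, as do Atp5g2 and Atp5g3. Atp5g1 had 455, 447 and 470 CPM in the Vector libraries and 617, 548 and 648 CPM in PUS10-OE. Its log2 fold change was 0.40 (SE 0.087, edgeR adjusted p = 0.337; 0.0101 to 1 over the alternatives). The groups did not overlap, and the smallest gap lay between Vector replicate 3 and PUS10-OE replicate 2. The other c subunit genes had log2 fold changes of 0.17 (Atp5g2) and 0.24 (Atp5g3), with overlapping groups.

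Cox7a2, a small subunit of cytochrome c oxidase, had 315, 303 and 313 CPM in Vector and 377, 393 and 413 CPM in PUS10-OE. Its log2 fold change was 0.34 (SE 0.0787, edgeR adjusted p = 0.358). All 3 treated libraries were above the controls. Ndufa5, an accessory subunit of the arm of complex I that faces the matrix, had 123, 130 and 125 CPM against 174, 157 and 164 CPM, which is 0.39 on the log2 scale (SE 0.0909, edgeR adjusted p = 0.358). Ndufs6, an accessory subunit of the same arm, had 169, 171 and 166 CPM against 208, 211 and 242 CPM, or 0.39 on the log2 scale. A pseudogene of Ndufs6 held 4.26% of their combined counts. Atp5mpl, a small membrane subunit of ATP synthase, had 237, 234 and 245 CPM against 289, 312 and 301 CPM, or 0.33 on the log2 scale. In all 3 genes the groups did not overlap.

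In complex III the lowest p-value was that of Uqcr11, with 359, 330 and 311 CPM in Vector and 448, 396 and 560 CPM in PUS10-OE. The log2 fold change was 0.49 (SE 0.134, edgeR adjusted p = 0.403). PUS10-OE replicate 3 was highest. Complex II was divided: Sdhd had a log2 fold change of 0.23 (edgeR adjusted p = 0.459), and Sdha, the flavoprotein that oxidises succinate, had −0.30 (edgeR adjusted p = 0.596). Sdha had 448, 451 and 428 CPM in Vector and 378, 294 and 408 CPM in PUS10-OE, all treated libraries lying below. Sdhb, at 0.11, overlapped between groups. Core subunits had lower medians than accessory ones: the 7 nuclear core subunits of complex I had a median of 0.14 (5 positive), and the 29 accessory subunits had 0.27 (28 positive). The core subunits also had longer transcripts, with a median of 1623 nt, against 763 nt for the accessory ones. Atp5b had −0.06 with an SE of 0.0641, and the 3 core subunits of complex III had a median of 0.11.

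**Figure D3:**
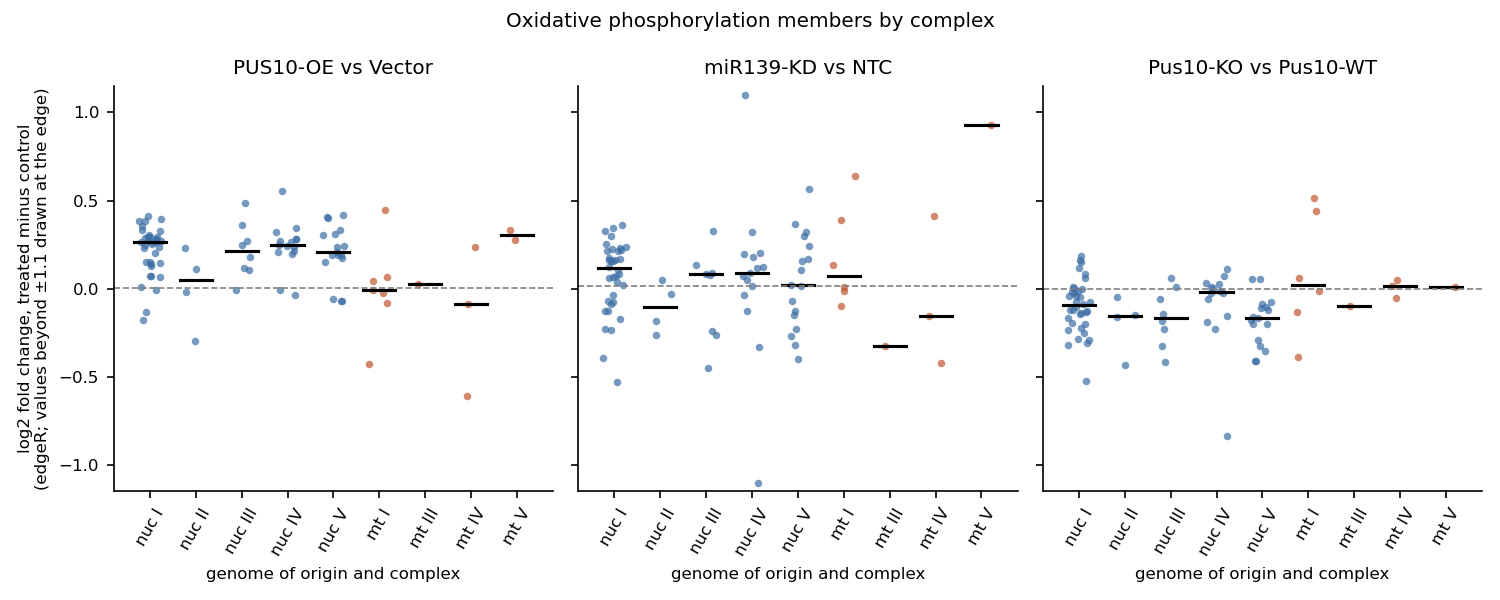
Log2 fold change of each tested member (1 point each) by genome of origin and complex in the 3 comparisons, with the group median as a bar and the median of all genes tested as a dashed line; values beyond ±1.1 are drawn at the edge. In PUS10-OE 69 of 80 nuclear points are above 0, in miR139-KD 52 of 80 and in Pus10-KO 18 of 79.

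PUS10-OE replicate 3 stood apart in both genomes. Its nuclear members took 2.98% of counts, against 2.64% and 2.69% in the other PUS10-OE libraries, and its mitochondrial genes 1.47%, against 1.87% and 2.02%. Without it the nuclear median was 0.154 in place of 0.24. The multipotent progenitor markers summed to 652 to 679 CPM in PUS10-OE and 930 to 947 CPM in Vector. The megakaryocyte and platelet markers summed to 249 to 449 CPM and 153 to 180 CPM in the same order. Mitochondrial ribosomal RNA took 0.177% to 0.437% of counts in PUS10-OE and 0.135% to 0.149% in Vector, without overlap. The part of these markers and of this RNA in the members' values was not tested.

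Of the 13 mitochondrial genes, all tested in this comparison, 7 were positive, with a median of 0.03 and no gene at an unadjusted p under 0.05. The lowest p-value was that of mt-Nd6, with 117, 102 and 101 CPM in Vector and 66.9, 104 and 66.8 CPM in PUS10-OE, or −0.43 on the log2 scale (SE 0.188, edgeR adjusted p = 0.621). PUS10-OE replicate 2 lay within the Vector values. mt-Cytb had a log2 fold change of 0.03 (SE 0.0869). The median over the mitochondrial genes ran from −0.248 (without PUS10-OE replicate 2) to 0.242 (without PUS10-OE replicate 3) when single libraries were left out.

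The second comparison asks how lowering miR-139 goes with expression. In miR139-KD, mt-Nd6 rose, 1 nuclear member was called lower, and no other member was called, with 2.72% of 13295 genes tested called in either direction (1.41% higher and 1.31% lower). Nuclear members had a median log2 fold change of 0.08 (52 of 80 positive), beside 0.0171 over all genes (51.4% positive). That median was 0.0246 without miR139-KD replicate 6 and 0.0374 without NTC replicate 6. At an unadjusted p under 0.05, 13 were higher and 8 lower, or 16.3% and 10.0%, against 8.04% and 8% of all genes (16% in either direction). All miR139-KD libraries lay above all NTC libraries in 1 nuclear member and below them in 2, against 1.65% and 1.78% of all genes. Core subunits of complexes I and III lay below 0, and most of their accessory subunits lay above it.

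mt-Nd6 encodes the complex I subunit that is transcribed from the strand opposite to the other mitochondrial members. It had 287, 300, 266, 195, 264 and 241 CPM in NTC and 445, 333, 405, 345, 428 and 463 CPM in miR139-KD. Every miR139-KD library lay above every NTC library. It rose by 0.64 on the log2 scale, or 1.56-fold (SE 0.116, edgeR adjusted p = 0.00909; 3.68e-05 to 0.0379 over the other tools, scalings, filters and fits and each library left out). Reads from the opposite strand are included in these counts. Both mt-Nd5, its overlapping neighbour (−0.01, SE 0.102), and mt-Nd4 (0.13, SE 0.0978) overlapped between groups.

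Markers of other blood cells moved with this comparison. Of the B and plasma list, NTC replicate 5 and miR139-KD replicates 5 and 6 held 16669, 15080 and 5297 CPM, while all other libraries of the experiment held 147 to 1630 CPM. With these 3 libraries left out, a setting chosen after seeing the data, no member passed, and mt-Nd6 had 0.56 (edgeR adjusted p = 0.0854). The megakaryocyte and platelet markers summed to 1112 to 2810 CPM in miR139-KD and 65.6 to 314 CPM in NTC, and the multipotent progenitor markers to 184 to 267 CPM and 494 to 933 CPM. The erythroid markers (648 to 11502 CPM in NTC, 1020 to 9544 CPM in miR139-KD) and the neutrophil and monocyte markers (1484 to 11359 and 1041 to 12659 CPM) varied widely in both groups. The HSC markers summed to 649 to 988 CPM in NTC and 1063 to 1194 CPM in miR139-KD, without overlap. The part of these lists in the members' values was not tested.

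**Figure D4:**
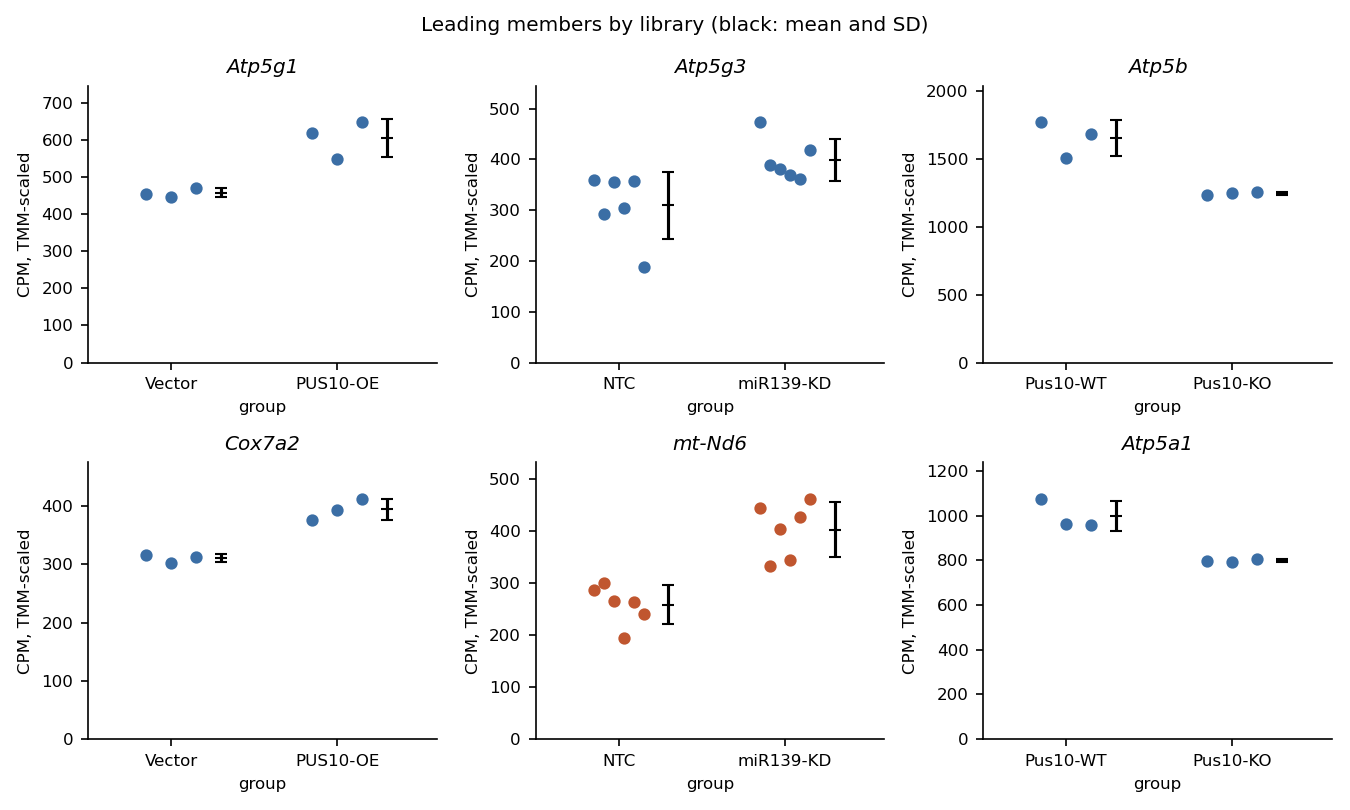
TMM-scaled CPM by library for 2 members of each comparison, 1 point per library in replicate order, with the group mean and SD in black. The 2 groups do not overlap in these 6 genes, which are examples and do not stand for the members at large. mt-Nd6 (miR139-KD against NTC) passed the edgeR test, and Atp5g1, Cox7a2, Atp5g3, Atp5b and Atp5a1 did not. In miR139-KD, Atp5g3 was the 1 nuclear member with all treated libraries above the controls, against 1.65% of all genes. Its p-value was not among the 3 lowest of complex V.

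Other members lay near the threshold on both sides of 0. Atp5b had 1528 to 2131 CPM in NTC (median 1774) and 1124 to 1544 CPM in miR139-KD (median 1415), or −0.40 on the log2 scale (SE 0.106, edgeR adjusted p = 0.0618). NTC replicates 1 and 6 overlapped the highest miR139-KD libraries. Atp5mpl had 176 to 270 CPM (median 248) in NTC and 267 to 532 CPM (median 334) in miR139-KD, or 0.56 (SE 0.15, edgeR adjusted p = 0.0614). Its extremes were NTC replicate 6 and miR139-KD replicate 6. Ndufa9, a complex I subunit of the arm facing the matrix, had −0.39 (edgeR adjusted p = 0.0863), Atp5e, the epsilon subunit of ATP synthase, 0.32 (0.0903), and Ndufa3, a small membrane subunit of complex I, 0.36 (0.11). DESeq2 called these 5 among its 6 nuclear members, with 6.7% of all genes called. All 7 nuclear core subunits of complex I were negative (median −0.12), while 25 of the 29 accessory subunits were positive (median 0.16). The 3 core subunits of complex III were negative (median −0.26) and the other 5 members positive (median 0.09). Of the F1 subunits of ATP synthase, 4 of 5 were negative (median −0.15), and of the other 12 members of complex V 9 were positive (median 0.13). The mostly negative classes had the longer transcripts. Median lengths were 1623 and 763 nt for core and accessory subunits of complex I, and 1653 and 535 nt for core and other members of complex III. For the F1 subunits and the other 12 members of complex V they were 1735 and 770 nt.

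In complex IV, Cox7a2l, a factor that joins complexes III and IV into supercomplexes, had 340 to 488 CPM in NTC (median 394) and 265 to 372 CPM in miR139-KD (median 312). Its log2 fold change was −0.33 (SE 0.108, edgeR adjusted p = 0.124). Cox6a2, the muscle form of subunit 6A, had 0.559 to 17.2 CPM in NTC (median 11.9) and 0 to 4.90 CPM in miR139-KD (median 1.84), or −2.42 (SE 1.06, edgeR adjusted p = 0.277). NTC replicate 2 lay among the miR139-KD values. The ubiquitous Cox6a1 had 0.20 (SE 0.0932) and Cox4i1 had −0.04 (SE 0.0794). Atp5g3 had all 6 miR139-KD libraries above all 6 NTC libraries, with 0.37 (SE 0.14, edgeR adjusted p = 0.199), as the 1 nuclear member separated upward. Complex II overlapped between groups in all 4 members.

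The mitochondrial genes with the highest CPM in NTC, mt-Cytb and mt-Co1, had negative log2 fold changes that did not pass the test. mt-Co1 had 3492 to 4934 CPM in NTC (median 4641) and 2495 to 4199 CPM in miR139-KD (median 3089). Its log2 fold change was −0.42 (SE 0.13, edgeR adjusted p = 0.109). mt-Cytb had 3863 to 5754 CPM (median 5046) and 3158 to 4696 CPM (median 3933), or −0.32 (SE 0.118, edgeR adjusted p = 0.177). Both overlapped between groups. mt-Nd1, next in CPM, had −0.10 (SE 0.139). Per kb, mt-Nd1 (2965 ± 605) and mt-Co1 (2846 ± 401) were close in NTC (SD, n = 6). mt-Nd2 had 0.39 (edgeR adjusted p = 0.242), and mt-Atp6 0.93 (edgeR adjusted p = 0.342), where miR139-KD replicate 3 alone had 78.3 CPM. Over the 11 mitochondrial genes tested, 6 were positive and the median was 0.0082.

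The third comparison asks how expression differs where the labels give a Pus10 knockout. Nuclear members leaned lower in Pus10-KO, the opposite sign to PUS10-OE, and none passed the test. Of 79 tested, 18 were positive and the median log2 fold change was −0.12, beside −0.0034 over all genes (49.7% positive). edgeR called 9 of 14657 genes (0.0614%, or 0.0136% higher and 0.0478% lower) and no member; DESeq2 called 3 members, all lower (Atp5b, Atp5a1 and Uqcrc1), with 1.46% of all genes called. At an unadjusted p under 0.05, no nuclear member was higher and 7 were lower, against 3.53% and 3.33% of all genes (6.86% in either direction). In 10 members all Pus10-KO libraries lay below all Pus10-WT libraries, and in 1 above, against 6.79% and 6.86% of all genes. Scaled by library size alone, the nuclear median was −0.055, while the median over all genes moved to 0.0616 (56.0% positive). Medians by complex were −0.09 (I), −0.16 (II), −0.16 (III), −0.02 (IV) and −0.16 (V).

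The lowest p-values were those of the beta and alpha subunits of the F1 head of ATP synthase, the part that makes ATP. Atp5b had 1774, 1512 and 1687 CPM in Pus10-WT and 1235, 1249 and 1260 CPM in Pus10-KO. Its log2 fold change was −0.41 (SE 0.0804, edgeR adjusted p = 0.35; 0.000436 to 0.887 over the alternatives). Atp5a1, the alpha subunit, had 1076, 962 and 959 CPM against 796, 794 and 804 CPM, or −0.32 (SE 0.0808, edgeR adjusted p = 0.501). The Pus10-KO libraries were close to each other, and all lay below Pus10-WT in both genes. Atp5j2, a membrane subunit, had 181, 156 and 158 CPM against 128, 123 and 122 CPM, or −0.41. All 5 F1 subunits, all 3 c subunit genes and 15 of the 17 nuclear complex V members tested were negative.

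Core subunits of other complexes lay on the same side. Uqcrc1, a core protein of complex III, had 680, 619 and 674 CPM in Pus10-WT and 471, 564 and 446 CPM in Pus10-KO, or −0.41 (SE 0.112, edgeR adjusted p = 0.507). Ndufs1, the largest core subunit of complex I, had 100, 106 and 122 CPM against 71.0, 77.8 and 79.3 CPM, or −0.52 (SE 0.151, edgeR adjusted p = 0.527). Sdhc had 209, 205 and 191 CPM against 129, 191 and 127 CPM, or −0.44 (SE 0.178, edgeR adjusted p = 0.695). Pus10-KO replicate 2 came close to the Pus10-WT values in Uqcrc1 and Sdhc. All 7 nuclear core subunits of complex I were negative (median −0.13), while 8 of its 29 accessory subunits were positive (median −0.05). Complex IV was the nuclear complex nearest to 0, with 6 of 14 members positive; Cox6b1, with the lowest p-value in it, had −0.19 (edgeR adjusted p = 0.885).

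The mitochondrial genes did not lean with the nuclear ones in these libraries: 6 of the 11 tested were positive, with a median of 0.0088. mt-Nd2 had 260, 232 and 293 CPM in Pus10-WT and 450, 297 and 317 CPM in Pus10-KO, or 0.44 (SE 0.178, edgeR adjusted p = 0.693), with no overlap but a narrow gap. mt-Nd6 had 0.52 (SE 0.262, edgeR adjusted p = 0.812), with overlapping groups. mt-Co1 (0.01, SE 0.0477) and mt-Cytb (−0.10, SE 0.0618) had small errors and small differences.

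The 2 groups of the third experiment also differed in markers of B and plasma cells. The list summed to 19590 to 27763 CPM in Pus10-WT and 104 to 113 CPM in Pus10-KO, mostly from immunoglobulin genes. Igkc had 10095 to 13943 CPM in Pus10-WT and 0.542 to 14.6 CPM in Pus10-KO, and 2 of the 7 markers, Cd79a and Ms4a1, were at 0 in Pus10-KO. All libraries of 1 group had this signal and none of the other did, so it cannot be told apart from the genotype label. The erythroid markers summed to 281 to 1713 CPM in Pus10-WT and 459 to 5529 CPM in Pus10-KO, and the neutrophil and monocyte markers to 538 to 822 and 606 to 3900 CPM. The part of these other lists in the members' values was not tested.

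Side by side, 50 of the 79 nuclear members tested in all comparisons (63.3%) were higher in PUS10-OE and lower in Pus10-KO, where 25.9% of 12308 genes were. The reverse pattern was seen in 0 members and in 24.3% of all genes. As many members, 50 of 79 (63.3%, against 28.3% of all genes), were higher in both PUS10-OE and miR139-KD. These are counts of signs, most of them from fold changes smaller than the test could call. Most nuclear members were positive in PUS10-OE (69 of 80) and negative in Pus10-KO (61 of 79), and 52 of 80 were positive in miR139-KD. High joint counts can follow from these separate leans, without the same genes responding in a linked way. The comparisons share no libraries.

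Fold changes of the nuclear members went with transcript length. Their representative transcripts had a median length of 849.5 nt in the PUS10-OE comparison, against 3027 nt for the other protein-coding genes tested. Spearman's rho between length and log2 fold change across members was −0.49 in PUS10-OE (80 members), −0.53 in miR139-KD (80) and −0.37 in Pus10-KO (79). Across other protein-coding genes it was −0.07, 0.14 and 0.12. Genes of 1 library share its RNA quality and amplification, so these are descriptions. In PUS10-OE, the 38 members of up to 800 nt had a median of 0.27 (37 positive), and the 363 other genes of that length had 0.21 (77.1% positive). In miR139-KD the same classes had 0.16 and 0.11, and the 1200 to 2000 nt classes −0.23 and −0.13. In Pus10-KO the classes up to 800 nt had −0.05 and −0.01, and in the class of 800 to 1200 nt 1 of 16 members was positive (median −0.10), against 49.4% of 696 other genes (median −0.0037). In each class up to 4000 nt, the median of the other genes had the same sign as that of the members in all 3 comparisons. The 2 members over 4000 nt had a median of 0.38 in PUS10-OE, against −0.03 for other genes, −0.00057 in miR139-KD, against 0.13, and −0.10 in Pus10-KO, against 0.10. Core and F1 subunits had longer transcripts, by median, than the other members of their complexes, so these subunit classes differ in length as well. The part of length in the members' values was not tested, either in all members or between these classes.

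**Figure D5:**
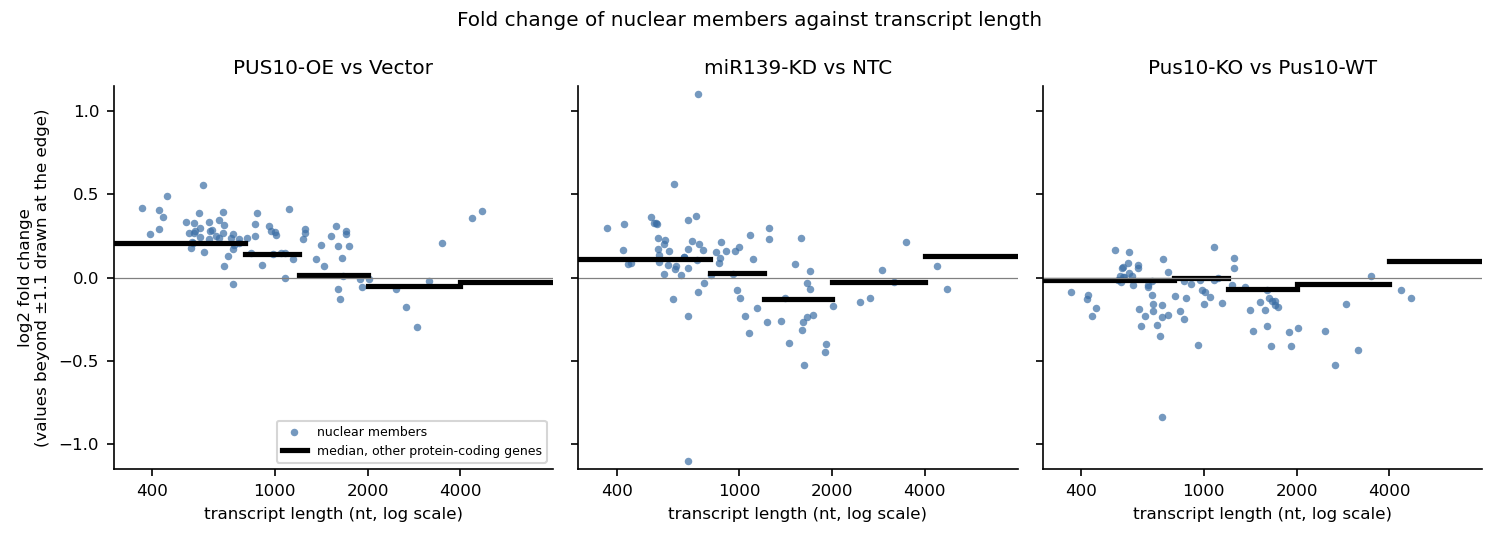
Log2 fold change of each nuclear member (blue points) against the length of its representative transcript in nt (log axis) in the 3 comparisons; black bars give the median of the other protein-coding genes tested in each length class, and values beyond ±1.1 are drawn at the edge. In PUS10-OE the bar of the shortest class stands at 0.21, and the members of that class have a median of 0.27.

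Other mitochondrial gene lists were set beside the members. Mitochondrial ribosomal proteins, which translate the mitochondrial members, had a median of 0.18 in PUS10-OE (68 of 77 positive), 0.01 in miR139-KD (39 of 77) and −0.13 in Pus10-KO (16 of 77), and none was called. Mrpl40 had the lowest p-value among them in PUS10-OE, at 165 ± 3.11 CPM in Vector and 213 ± 10.5 CPM in PUS10-OE (SD, n = 3 each; log2 fold change 0.37, edgeR adjusted p = 0.358). Tricarboxylic acid cycle genes, which supply NADH and succinate to complexes I and II, had −0.0029 (8 of 16 positive), −0.25 (3 of 16) and −0.18 (2 of 16). The 1 companion gene called was Idh3g, a subunit of NAD-dependent isocitrate dehydrogenase, which fell from 384 ± 34.8 CPM in NTC to 261 ± 54.9 CPM in miR139-KD (SD, n = 6 each; log2 fold change −0.56, edgeR adjusted p = 0.0311). In that comparison 2.72% of all genes tested were called, 1.31% of them being called lower out of the same total. The groups of Idh3g did not overlap, and 1.78% of all genes had all miR139-KD libraries below all NTC libraries.

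Electron carriers and assembly factors had medians of 0.14 (31 of 46 positive), −0.12 (19 of 46) and −0.14 (17 of 46). Among them Cycs, cytochrome c, had 292 ± 1.53 CPM in Vector and 404 ± 58.7 CPM in PUS10-OE (SD, n = 3 each), or 0.47 on the log2 scale (edgeR adjusted p = 0.358). Cyc1, cytochrome c1 of complex III, which the symbol rule left out, had 302 ± 52.6 CPM in Pus10-WT and 217 ± 12.3 CPM in Pus10-KO (SD, n = 3 each), or −0.48 (edgeR adjusted p = 0.537). Genes for synthesis and stability of mitochondrial RNA had medians of 0.02 (15 of 28 positive), −0.04 (12 of 27) and −0.22 (9 of 28). Among these, Lrpprc, which stabilises mitochondrial transcripts, had 72.5 ± 18.5 CPM in Pus10-WT and 46.8 ± 9.73 CPM in Pus10-KO (SD, n = 3 each), or −0.63 (edgeR adjusted p = 0.695).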

How the data were processed

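Each library had 1 deposited file of raw read counts per gene. The submitters' processing notes name HISAT2 2.1.0, HTSeq 0.11.2, DESeq2 and the build mm10. The annotation release and the treatment of multiply mapped reads are not given in the sources used here. HTSeq's entry for alignments that are not unique was 0 in all 24 libraries. Entries that name no gene stayed out (no feature 3.70% to 12.0%, ambiguous 6.53% to 20.1%). Symbols, lengths and copies (BLAST+ 2.17.0) came from GENCODE M21.

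Each treated group was fitted against its control with edgeR 4.0.16 in R 4.3.3 (filterByExpr, TMM, robust quasi-likelihood F test, two-sided), with Benjamini-Hochberg adjustment over all genes tested and a threshold of 0.05. Levels are CPM scaled by TMM; marker sums use the same scale. Replicates differed beyond sampling noise in all 42 pairs. The fits were tested on simulated counts.

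Named genes were the 3 lowest p-values per complex and genome, all called members except 1 that is not reported here, tissue-restricted isoforms and their counterparts, the c subunit genes, extremes of level per kb, all mitochondrial genes by level, Pus10, and up to 3 per companion list. The grouping into core, accessory, F1 and c subunits was chosen after values were seen, as were Ndufa11, Atp5k, Atp5l, Atp5o and Ndufs3 (named for promoters or copies), Cox7b2 and the fold changes of mt-Nd4 and mt-Nd5. The members and lists were chosen with earlier results of these data known. Alternatives were DESeq2 1.42.0, other scalings and filters, all 6 groups in 1 fit, the replicate number as a block, and each library left out.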

Additional observations from a re-analysis of the deposited data

Results flagged for a closer look

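In groups of 6 libraries, 42 sets of values were examined for a library standing far from the other 5, and 7 were flagged; chance flags about 1 in 20. In miR139-KD replicate 6 the nuclear members took 3.03% of counts, with the next library at 2.62%. The same library was highest of its group in Sdhb (419 CPM, next 351), Uqcrb (303 CPM, next 208), Cox7c (367 CPM, next 277) and Atp5mpl (532 CPM, next 341). It also held 5297 CPM of B and plasma markers and 704 CPM of mast and basophil markers. In NTC replicate 6, Atp5mpl was lowest at 176 CPM (next 244), and in NTC replicate 3, Ndufa9 was highest at 241 CPM (next 173).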

How the results depend on the processing

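For PUS10-OE, DESeq2 called 5 nuclear members and each other setting 0; the nuclear median was 0.154 to 0.275 with single libraries left out, the lowest without PUS10-OE replicate 3, and the mitochondrial median −0.248 to 0.242. For miR139-KD, the nuclear members called were 6 with DESeq2, 3 with a filter of 10 CPM, 6 with all 6 groups in 1 fit and 1 to 2 with single libraries left out, and the mitochondrial genes called were 2 with DESeq2 and 2 with all 6 groups in 1 fit. The nuclear median there was 0.0246 to 0.118 with single libraries left out. With the libraries rich in B and plasma markers left out (chosen after seeing the data, and with fewer samples), both counts were 0, and Sdha, which was not called, changed sign to −0.0404. For Pus10-KO, DESeq2 called 3 nuclear members, and the mitochondrial median was 0.0742 when scaled by library size only. In that setting the median over all genes was 0.0616. The nuclear median was −0.158 to −0.071 with single libraries left out. The cause of these differences was not tested.

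Same-numbered libraries deviated from their group means with correlations of −0.0155 to 0.0236, so no pairing by number was seen. Such correlations cannot show whether same-numbered libraries were prepared together. NTC replicate 5 and miR139-KD replicate 5 both held high sums of B and plasma markers (16669 and 15080 CPM). With the replicate number as a block, the nuclear medians were 0.236, 0.0744 and −0.105 and the mitochondrial medians −0.0382, 0.0122 and 0.0136 in the order of the report. The count of members called stayed at 0 in PUS10-OE, at 1 nuclear and 1 mitochondrial in miR139-KD and at 0 in Pus10-KO, while all genes called went from 361 to 188 in miR139-KD and from 9 to 2 in Pus10-KO. That added setting aside, 25 of 916 values of named genes passed the threshold that the report's fit missed, 0 lost a call and 0 changed sign. Among the mitochondrial genes, mt-Nd4l (248 counts in all) and mt-Atp8 (133) had the fewest counts.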
